A study of Mus musculus with 27 samples.

Results

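The mouse miR-297, miR-466, miR-467 and miR-669 families are 4 groups of closely related microRNAs, most of whose hairpins lie in a large intron of the gene Sfmbt2. Every entry of the count table whose name belongs to one of these families was taken, which gave 49 members among 1842 mature microRNA entries. There were 3 members of the miR-297 family, 16 of miR-466, 9 of miR-467 and 21 of miR-669. Of the 49, 21 were named as the 5p arm of their hairpin, 17 as the 3p arm, and 11 carried no arm in their name.

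A microRNA is cut from a hairpin in a longer transcript, and either strand of the hairpin stem (the 5p or the 3p arm) can be loaded into an Argonaute protein, where the seed near its 5′ end pairs with target messages. Sfmbt2 encodes a Polycomb group protein and is imprinted, being transcribed from the paternal copy in early embryos and placenta. The cluster in its intron arose by repeated duplication in rodents, is best known from the placenta and from pluripotent cells, and holds many near-identical hairpins whose mature products are rich in alternating U and G or A and C.

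The libraries were small RNA libraries from cortex of wildtype C57BL6 mice aged 7 to 8 weeks. Transient middle cerebral artery occlusion (MCAO), a stroke model in which a filament blocks the artery that feeds most of the lateral cortex, was applied for 35 min on the right side. Ipsilateral cortex, on the side of the occlusion, and contralateral cortex were collected at 3, 6, 12 or 24 h of recovery, and from sham mice that were anesthetized and had their arteries exposed with no filament inserted. The 9 groups (sham, and contra_3h to ipsi_24h) held 3 libraries each, and libraries with the same replicate number came from the same day of surgery. The labels do not say whether the contralateral and ipsilateral libraries of one number came from the same mice.

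All 49 members matched hairpin genes of the RefSeq table (GRCm38.p6) by name. The hairpins of 40 members lay inside Sfmbt2, on its strand and within intron 10 of its longest annotated transcript in the GENCODE annotation. The other 9 members (miR-466i-3p, miR-466i-5p, miR-466j, miR-466k, miR-466q, miR-467f, miR-467g, miR-467h and miR-669n) carry the family names but have hairpins on other chromosomes. The label of an Sfmbt2 cluster therefore holds for 40 of the 49 members.

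Mature RefSeq sequences were matched for 8 members, all from the 9 outside Sfmbt2. They are shown because they make the likeness of these 8 members visible, with the seed (bases 2 to 8, counted from the 5′ end) in capitals.
miR-466i-3p: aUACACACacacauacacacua
miR-466q: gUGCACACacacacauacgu
miR-467f: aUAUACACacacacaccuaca
miR-467g: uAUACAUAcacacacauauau
miR-466j: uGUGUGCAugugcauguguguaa
miR-466k: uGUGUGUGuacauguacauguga
miR-467h: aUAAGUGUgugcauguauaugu
miR-669n: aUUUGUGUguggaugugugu

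In GRCm38.p6 these lie at chr13:17747552-17747573 on the plus strand (miR-466i-3p), chr3:28419988-28420007 plus (miR-466q), chr11:69635419-69635439 minus (miR-467f), chr5:34732872-34732892 minus (miR-467g), chr10:60960802-60960824 plus (miR-466j), chr3:85467396-85467418 plus (miR-466k), chr9:115381898-115381919 plus (miR-467h) and chr3:115979905-115979924 plus (miR-669n). The first 4 hold runs of alternating A and C and the last 4 of alternating U and G, and all 8 seeds differ. The mature sequence was searched, on the strand given, for UGUGUGUG or ACACACAC. One of these letters runs stood in 6 of the 8 sequences (75%), against 0.693% of the 1587 table entries with a RefSeq mature sequence. Members of near-identical sequence can share reads, and no sequence of an intronic member was matched to judge this. The counting rule for reads that match several members is not stated in the labels, which leaves the level of a single member uncertain to that extent.

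The 49 entries, called the family below, were a small part of the cortical microRNA pool. The count table holds no 3p arm of miR-297, for example, so sums cover only the entries it lists. Library totals ran from 856591 to 1903416 counts, so 1 read was worth 0.41 to 1.37 CPM, the unit used below (counts scaled to a common library size with edgeR's TMM factors). All members together had 9795 counts over the 27 libraries, and 36 to 49 of the 49 members were seen in a library. In sham cortex they made up 0.0193% to 0.0231% of a library. A low-count filter (about 9.4 CPM in at least 3 libraries) left 1470 entries for testing, among them 10 members. The other 39 members had 3158 counts in all (32.2% of the family's counts), with no more than 19 counts in a library. None of the 49 was at 0 in every library, and 10 of those 39 were seen in every library.

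miR-467d-5p stood first, with 3679 counts or 37.6% of all counts of the 49 members. miR-669g followed with 978 counts (9.98%). The most abundant members of the remaining families were miR-466g (336 counts) and miR-297b-5p (130 counts), and no miR-297 entry entered the test. miR-669a-3-3p and miR-467c-5p were over the filter level in only 3 and 4 libraries, all ipsilateral, so their place among the tested members came from the groups in which they were high.

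**Figure D1:**
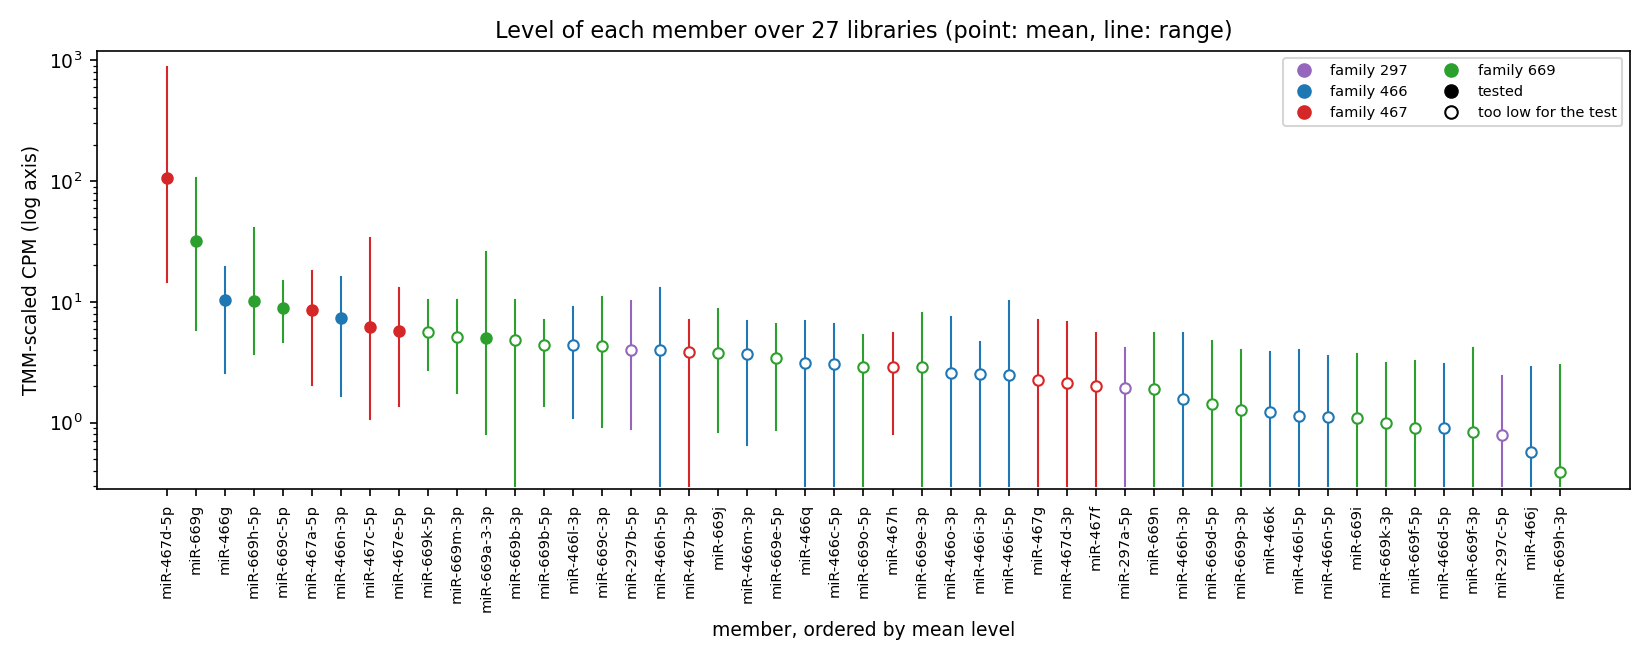
Level of each of the 49 members over the 27 libraries, as TMM-scaled CPM on a log axis, ordered by mean. Points are means, lines run from the lowest to the highest library (lines that reach the foot of the plot start at 0), colours mark the 4 families and filled points the 10 tested members; miR-467d-5p ran from 14.7 to 877 CPM, and the members with open points had at most 19 counts in a library.

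miR-467d-5p, the 5p arm of an intronic hairpin of the miR-467 family, was higher in occluded cortex and its level was highest at 24 h. In sham cortex its level was 18.6, 21.8 and 27.3 CPM in replicates 1, 2 and 3 (22.6 ± 4.36, SD, n = 3). Contralateral cortex held 24.2, 20.0 and 28.1 CPM at 3 h, 29.8, 14.7 and 17.5 at 6 h, 24.6, 47.5 and 27.3 at 12 h, and 19.8, 21.9 and 26.9 at 24 h. Contralateral libraries thus overlapped the sham range at each time, and contra_24h differed from sham by a log2 change of 0.02.

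Ipsilateral cortex held 109, 54.4 and 114 CPM of miR-467d-5p at 3 h (92.5 ± 33.1, SD, n = 3) and 89.6, 56.8 and 55.6 CPM at 6 h (67.4 ± 19.3). At 12 h the values were 103, 61.4 and 501 CPM (222 ± 242), and at 24 h they were 877, 307 and 200 CPM (461 ± 364). All 12 ipsilateral libraries lay above all 15 others. The highest library was replicate 3 at 12 h and replicate 1 at 24 h, so the spread within the ipsilateral groups was wide.

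**Figure D2:**
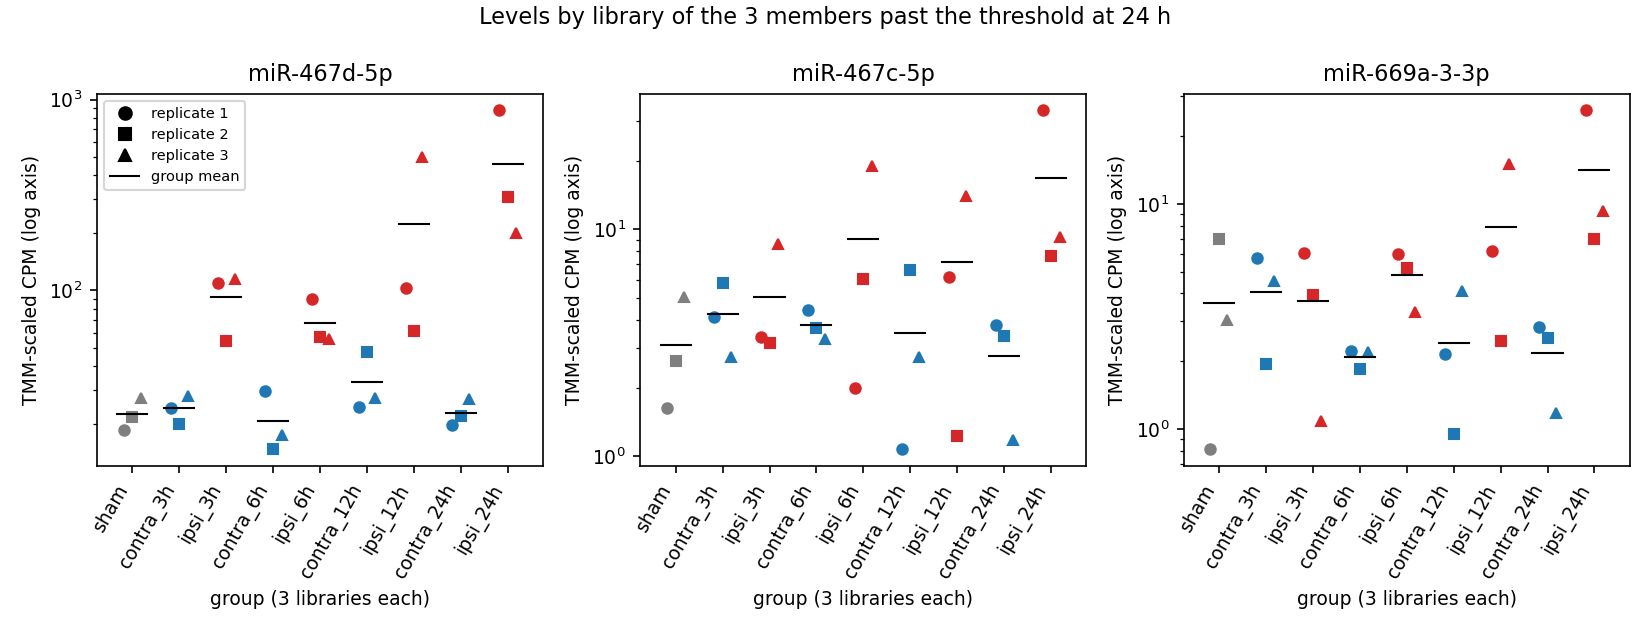
TMM-scaled CPM (log axis) of miR-467d-5p, miR-467c-5p and miR-669a-3-3p in each of the 27 libraries by group, with marker shapes for replicate number and a bar at each group mean (grey sham, blue contralateral, red ipsilateral). For miR-467d-5p the ipsilateral libraries, from 54.4 to 877 CPM, lie above the others, which reach 47.5; the hemispheres are also separate for miR-467c-5p at 24 h and for miR-669a-3-3p at 6 h and 24 h.

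The difference between hemispheres was tested for each entry with edgeR's quasi-likelihood test on all 27 libraries, with Benjamini-Hochberg adjustment over the 1470 entries and a threshold of 0.05. At 24 h miR-467d-5p was 20.2-fold higher in ipsilateral than in contralateral cortex (log2 change 4.33 ± 0.64, SE, edgeR adjusted p = 4.4e-05), which placed it 33rd of 1470 entries by fold and 13th by p. At 12 h it rose by a log2 change of 2.73 ± 0.60 (edgeR adjusted p = 0.00617). That 12 h call rested on replicate 3 of the ipsilateral group: without it the log2 change was 1.29 with an edgeR adjusted p of 0.494. It was also lost without contralateral replicate 1 (edgeR adjusted p = 0.0523) or replicate 3 (0.055).

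At the earlier times the log2 change of miR-467d-5p was 1.94 ± 0.59 at 3 h (edgeR adjusted p = 0.417) and 1.70 ± 0.60 at 6 h (0.63), and neither passed the threshold although the groups did not overlap. At 3 h DESeq2 gave an adjusted p of 0.0467 and edgeR on the 6 libraries alone 0.0381. Set against sham instead, the log2 change was 4.35 ± 0.64 at 24 h (edgeR adjusted p = 4.3e-05) and 3.30 ± 0.62 at 12 h (0.00152, and 0.0726 without ipsilateral replicate 3). The comparisons with sham and with contralateral cortex share the ipsilateral libraries.

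Whether the hemisphere difference of miR-467d-5p changed between the 4 times was tested as an interaction, and it did not pass (edgeR adjusted p = 0.304, unadjusted 0.017). The only alternative that called it left out ipsilateral replicate 3 at 12 h, with 59 of 1544 entries called. Within ipsilateral cortex, a comparison added after the data were seen found miR-467d-5p higher at 24 h than at 3 h by a log2 change of 2.32 ± 0.58 (edgeR adjusted p = 0.00976). That call was lost without 3 h replicate 2 (edgeR adjusted p = 0.0835) or 24 h replicate 1 (0.219). It was the only member called in that comparison, in which 8.44% of all entries were called higher.

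The opposite arm of the same hairpin stayed low. miR-467d-3p had 63 counts in all libraries against 3679 for miR-467d-5p, with 1.46 ± 0.394 CPM in sham and 1.70 ± 0.884 CPM in ipsi_24h (SD, n = 3). Over summed counts the 5p arm made up 93.8% of the arm pair in sham (95% Wilson interval 86.2% to 97.3%) and 99.6% in ipsi_24h (99.3% to 99.8%). These intervals cover counting error only. The 3p arm was below the filter, so no test of its change was made.

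2 further members passed at 24 h, miR-669a-3-3p and miR-467c-5p. miR-669a-3-3p had 2.83, 2.53 and 1.17 CPM in contra_24h and 26.0, 6.95 and 9.27 CPM in ipsi_24h, with sham at 0.811, 6.99 and 3.03. All 3 ipsilateral libraries at 24 h lay above the contralateral ones, and 1 of them lay just under the highest sham library. The log2 change between hemispheres was 2.60 ± 0.68 (edgeR adjusted p = 0.00838), and 1.96 ± 0.61 against sham (0.0321).

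miR-467c-5p had 3.77, 3.37 and 1.17 CPM in contra_24h, 33.5, 7.64 and 9.27 CPM in ipsi_24h, and 1.62, 2.62 and 5.05 CPM in sham. The 24 h ipsilateral libraries lay above both other groups. Its log2 change was 2.51 ± 0.74 between hemispheres (edgeR adjusted p = 0.0218) and 2.46 ± 0.73 against sham (0.0222).

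Replicate 1 of ipsi_24h was the highest library for miR-467d-5p, miR-467c-5p and miR-669a-3-3p alike. Without it the log2 change of miR-467d-5p between hemispheres was 3.47 and still passed (edgeR adjusted p = 4.4e-04). miR-669a-3-3p then had a log2 change of 1.79 (edgeR adjusted p = 0.188) and miR-467c-5p of 1.51 (0.396), and neither passed. Against sham the log2 changes without that library were 1.15 for miR-669a-3-3p (edgeR adjusted p = 0.446) and 1.46 for miR-467c-5p (0.398).

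The miR-467c-5p call also missed the threshold with any 1 contralateral library left out, while its log2 change stayed at 2.75, 2.66 and 2.21 without replicates 1, 2 and 3 (edgeR adjusted p = 0.0571, 0.0742 and 0.0834). Against sham it missed the threshold without sham replicate 1 (log2 change 2.03, edgeR adjusted p = 0.116) or 2 (2.37, 0.103). miR-669a-3-3p did so without sham replicate 1 (log2 change 1.35, edgeR adjusted p = 0.192) or 3 (1.87, 0.0975).

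Of the 10 tested members, 3 were therefore called higher at 24 h between hemispheres and 0 lower. Of all 1470 entries 174 (11.8%) were called higher and 195 in either direction, so the 0 lower says little. Since 2 of the 3 entered the test through their ipsilateral libraries, the count of 3 is no measure of the family. Against sham the same count was 3 of 10 at 24 h, beside 11.3% of all entries. At 12 h, 1 member (miR-467d-5p) was called higher between hemispheres, beside 4.35% of entries, and 1 against sham, beside 4.76%.

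At 3 h and 6 h edgeR called 0 of the 10 members and 0% of all entries, both between hemispheres and against sham. At an unadjusted p under 0.05 there was 1 member at 3 h and there were 2 at 6 h in either comparison, beside 58 and 64 of the 1470 entries between hemispheres and 86 and 54 against sham. DESeq2 called 1 member (miR-467d-5p) at 3 h and 0 at 6 h. Of all entries it called 0.748% at 3 h and 0.272% at 6 h between hemispheres, and 1.22% and 0.272% against sham, and at 3 h it gave no adjusted p to 8 of the 10 members.

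Between contralateral cortex and sham edgeR called 0 members at each of the 4 times, again with 0% of all entries, and 1 member, at 12 h, had an unadjusted p under 0.05. DESeq2 also called 0 members and 0 entries there. For the interaction with time edgeR called 0 members and 0.612% of entries, with 1 member and 137 entries at an unadjusted p under 0.05. DESeq2 called 0 members and 3.13% of entries for the interaction, but gave no adjusted p to 6 of the 10 members.

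**Figure D3:**
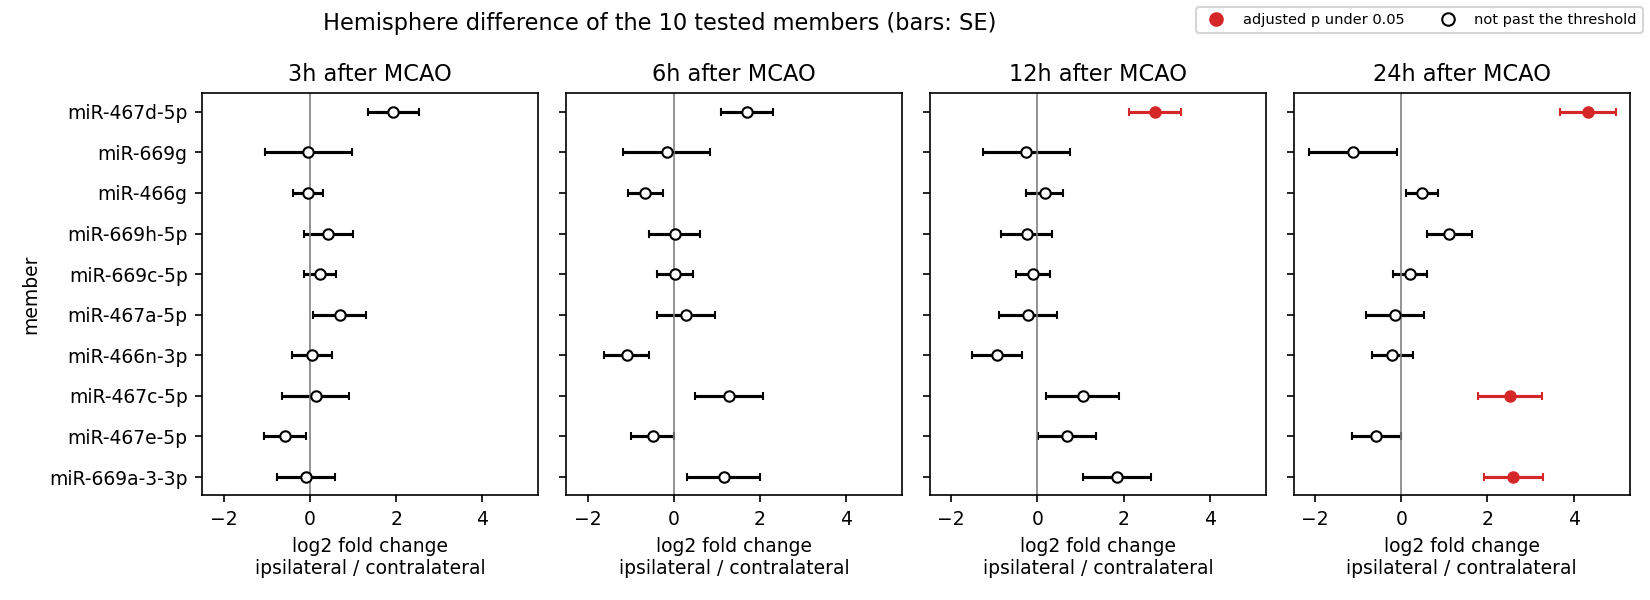
Log2 fold change (ipsilateral over contralateral) with its standard error for the 10 tested members at 3, 6, 12 and 24 h; filled red points have an edgeR adjusted p under 0.05. miR-467d-5p lies furthest to the right at each of the 4 times, from 1.70 at 6 h to 4.33 at 24 h, and the other members lie on both sides of 0.

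The 7 other tested members did not pass in any of these comparisons. miR-669h-5p, the 5p arm of an intronic miR-669 hairpin, had 12.3, 7.58 and 5.84 CPM in contra_24h and 41.0, 10.4 and 4.64 CPM in ipsi_24h. Its groups overlapped, and its log2 change was 1.12 ± 0.53 (edgeR adjusted p = 0.195). The log2 change was -0.18 without ipsilateral replicate 1, and without ipsilateral replicate 3 it was 1.56 and passed (edgeR adjusted p = 0.0234).

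For miR-466g the levels were 12.3, 8.42 and 7.01 CPM in contra_24h and 17.8, 11.1 and 10.0 CPM in ipsi_24h, a log2 change of 0.48 (edgeR adjusted p = 0.446). miR-466n-3p ran from 5.84 to 10.4 CPM in contra_24h and from 4.78 to 9.27 CPM in ipsi_24h. The log2 changes of miR-467a-5p, miR-467e-5p, miR-669c-5p and miR-466n-3p at 24 h lay between -0.58 and 0.21, and those of miR-467a-5p and miR-466n-3p turned positive when library totals alone set the scale. In the miR-467 family, miR-467d-5p and miR-467c-5p were called higher, and miR-467a-5p (edgeR adjusted p = 0.925) and miR-467e-5p (0.576) were not called. As stated above, miR-467c-5p entered the test through its ipsilateral libraries, and its call was lost without replicate 1 of ipsi_24h. Differences between members were not tested.

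miR-669k-5p, the most abundant of the 39 members below the filter (180 counts in all), had 6.60, 3.37 and 4.67 CPM in contra_24h and 10.2, 4.86 and 8.50 CPM in ipsi_24h, and the groups overlapped. Its sham libraries held 5.67, 6.99 and 6.06 CPM. In the fit with no filter its log2 change at 24 h was 0.71 ± 0.48 (edgeR adjusted p = 0.457).

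Since miR-669a-3-3p and miR-467c-5p passed the filter only through ipsilateral libraries, the family as a whole was described from the fit with no filter. At 24 h the median log2 change of all 49 members between hemispheres was 0.16, beside 0.10 for all 1842 entries, with 30 of 49 members above 0. Against sham the members' median at 24 h was 0.06, beside 0.02 for all entries, with 26 of 49 above 0. At 3 h, 6 h and 12 h the members' medians between hemispheres were -0.13, 0.04 and 0.01, beside -0.02, 0.07 and 0.07 for all entries.

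The scale of the comparison at 24 h depended on the normalization. When library totals alone set it, the median log2 change of all 1470 tested entries between hemispheres moved from 0.08 to 0.57. That of the 10 tested members moved from 0.34 to 0.85, and miR-467d-5p moved to 4.89. Against sham the medians moved from -0.02 to 0.36 for all entries and from -0.10 to 0.26 for the 10 members. Some of these 10 entered the test only through their ipsilateral libraries. Their medians therefore show the shift with scale and are no measure of the family beside all entries.

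Summed over all 49 members, the level was 220 ± 10.1 CPM in sham (SD, n = 3) and 215 ± 61.6 CPM in contra_24h. In ipsi_24h it was 1177, 477 and 391 CPM in replicates 1, 2 and 3, and in ipsi_12h 322, 206 and 659 CPM. The 3 ipsi_24h libraries lay above all sham and contralateral libraries. miR-467d-5p held 10.2% ± 1.79 of the family's counts in sham, 74.5%, 64.3% and 51.2% in ipsi_24h, and 76% in replicate 3 of ipsi_12h.

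Without miR-467d-5p, the sum of the remaining 48 members was 198 ± 8.58 CPM in sham, 192 ± 64 CPM in contra_24h and 220 ± 69.7 CPM in ipsi_24h (SD, n = 3). These groups overlapped: replicate 1 of contra_24h had 266 CPM and that of ipsi_24h 300 CPM, while the remaining ipsi_24h libraries had 170 and 191 CPM. The 39 members below the filter summed to 107 ± 12.6 CPM in sham, 101 ± 26 CPM in contra_24h and 113 ± 14.3 CPM in ipsi_24h. By family, and without miR-467d-5p, the sums in sham and ipsi_24h were 32.5 ± 11.4 and 41.5 ± 14 CPM for the miR-467 family, and 58.1 ± 6.81 and 61.2 ± 12.4 CPM for the miR-466 family.

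**Figure D4:**
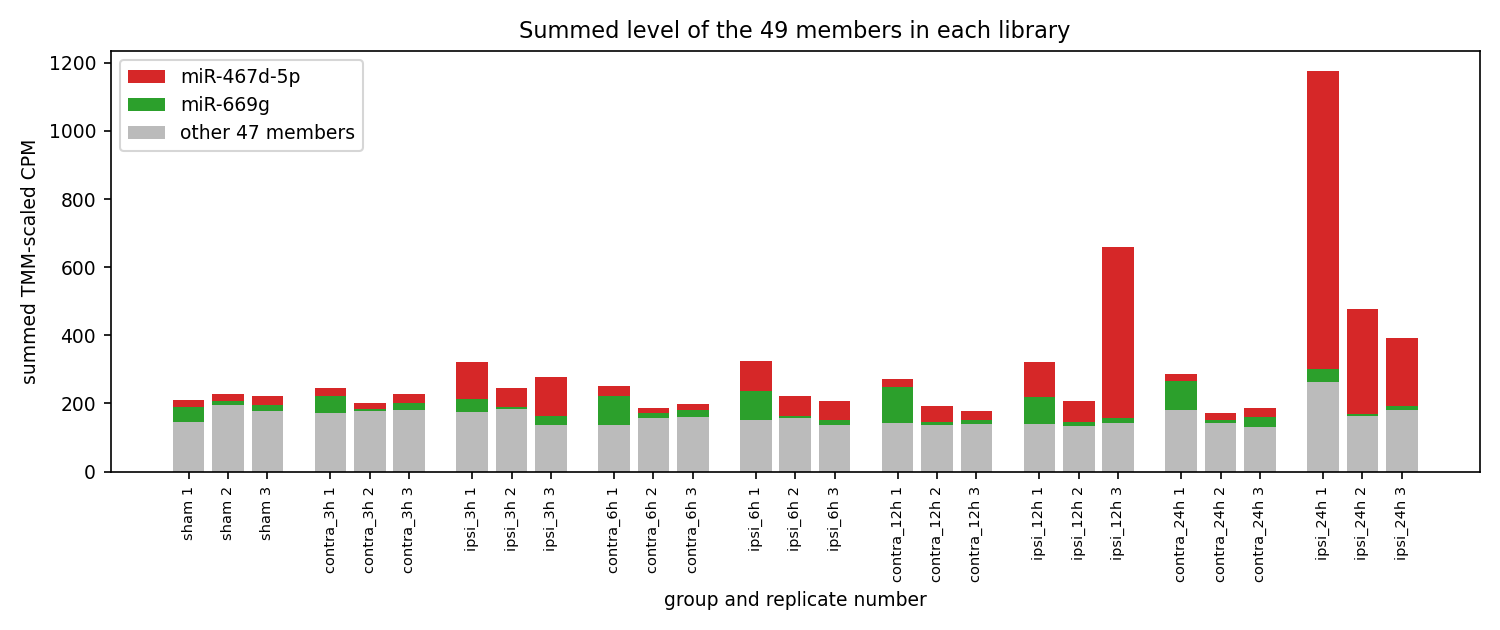
Summed TMM-scaled CPM of the 49 members in each of the 27 libraries, stacked as miR-467d-5p (red), miR-669g (green) and the other 47 members (grey). The red part makes up most of the bar in all 3 libraries of ipsi_24h and in replicate 3 of ipsi_12h, and the green part is largest in replicate 1 of every group.

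The 9 members whose hairpins lie outside Sfmbt2, which include the 8 sequences shown above, summed to 16.8 ± 4.14 CPM in sham, 18 ± 4.85 CPM in contra_24h and 25.5 ± 5.00 CPM in ipsi_24h (SD, n = 3). The 39 intronic members other than miR-467d-5p summed to 181 ± 5.50, 174 ± 59.2 and 195 ± 65.4 CPM in the same groups. The ranges of ipsi_24h and contra_24h overlapped in both sets. None of the 9 reached the filter. Among them miR-466i-5p had 3 counts in contra_24h and 25 in ipsi_24h, of which 15 were in replicate 1. In a fit of all 1842 entries with no filter it was called higher at 24 h (log2 change 2.51 ± 0.71, edgeR adjusted p = 0.017), which brought the members called to 4 of 49, beside 9.55% of all 1842 entries called higher in that fit.

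5 entries outside the families also hold UGUGUGUG or ACACACAC in their mature sequence, and 3 of them were tested. They are shown, with the letters run in capitals, since they hold a run found in family sequences shown above but lie at other genes. No mature sequence was matched for any tested member, so their likeness to miR-467d-5p and the others called higher is not known.
miR-574-5p: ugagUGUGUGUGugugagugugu
miR-672-5p: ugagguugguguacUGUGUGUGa
miR-3082-5p: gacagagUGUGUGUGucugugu

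None of the 3 was called between hemispheres at 24 h. Their log2 changes were 0.07 ± 0.39 for miR-574-5p (edgeR adjusted p = 0.943), -0.54 ± 0.30 for miR-672-5p (0.281) and 0.27 ± 0.51 for miR-3082-5p (0.797).

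miR-669g, the second most abundant member, differed by replicate number. Same-numbered libraries share a day of surgery, and whether the day or another shared step underlies the difference was not tested. Libraries of replicate number 1 ran from 36.2 to 106 CPM over the 9 groups (median 79.2), those of number 3 from 11.6 to 28 CPM (median 16.6) and those of number 2 from 5.82 to 14.7 CPM (median 8.56). Number 1 was highest and number 2 lowest in 9 of 9 groups, sham included, and the range of number 1 did not overlap the others.

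A test of replicate number, added after the data were seen, gave miR-669g a log2 difference of -2.79 ± 0.22 for number 2 against 1 and -1.80 ± 0.21 for number 3 against 1 (edgeR adjusted p = 1.5e-09, 2nd of 1470 entries by p). Between hemispheres at 24 h the level was 83.9, 9.26 and 28 CPM in contralateral and 36.2, 7.64 and 11.6 CPM in ipsilateral cortex for numbers 1, 2 and 3, lower on the ipsilateral side in 3 of 3 pairs of the same day. At 3, 6 and 12 h it was lower in 1, 3 and 1 of the 3 pairs. The log2 change at 24 h was -1.12 ± 1.03 (edgeR adjusted p = 0.545), and -0.99 ± 0.37 with the replicate number as a block (0.06, unadjusted 0.0129), and neither passed.

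Replicate number was called for 25% of all entries, so the 3 of 10 members called (miR-669g, miR-467a-5p and miR-669c-5p) are near the background. miR-467a-5p went the other way from miR-669g: its median was 4.78 CPM for number 1, 12.6 for number 2 and 8.77 for number 3 (edgeR adjusted p = 0.00369). miR-669c-5p was highest under number 2 in 7 of 9 groups (0.0335). miR-467d-5p was not called by replicate number (edgeR adjusted p = 0.43).

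**Figure D5:**
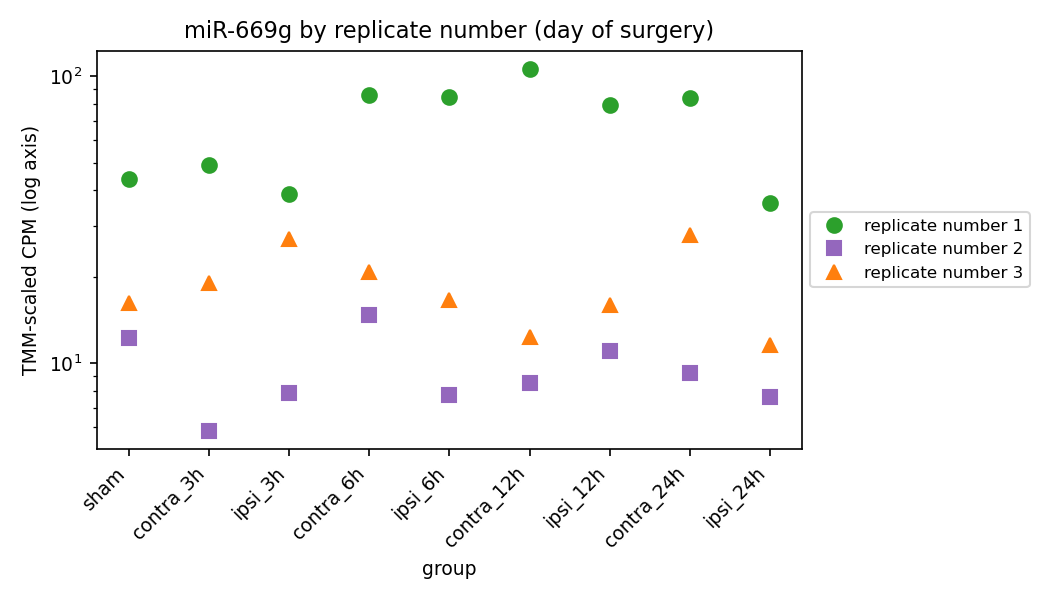
TMM-scaled CPM (log axis) of miR-669g in the 9 groups, with colours and shapes for the 3 replicate numbers (days of surgery). Number 1 is highest and number 2 lowest in every group, with medians of 79.2 and 8.56 CPM.

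Tissue markers were read beside these results. Summed over the 5 neuronal microRNAs listed, ipsi_24h ran from 68170 to 101200 CPM and contra_24h from 106900 to 162000 CPM, and the ranges did not overlap. Also lower and separate at 24 h were the sums of the 3 muscle entries (82.67 to 121.6 against 181.8 to 199 CPM) and the 2 choroid plexus entries (2236 to 2812 against 2830 to 5328 CPM). The sum of the 4 epithelial entries was higher and separate (487.7 to 905.3 against 364.4 to 451.2 CPM), although sham libraries ran from 340.4 to 25760 CPM. The median log2 change of the entries at 24 h had the opposite sign to the sum for choroid plexus (0.164) and epithelium (-0.184). Those sums therefore do not stand for every entry of their lists. The 5 leukocyte and microglial entries ran from 817.2 to 1089 CPM in ipsi_24h and from 1083 to 1771 CPM in contra_24h. The oligodendrocyte, erythrocyte, vessel, and meninges and fibroblast sums overlapped or met between the hemispheres. Of the listed markers that were tested, which left out 2 of 3 muscle and 1 of 5 leukocyte entries, edgeR called none at 12 h or 24 h between hemispheres. The erythrocyte, vessel, and meninges and fibroblast lists each had 1 marker with no row in the table, and no marker with a row was at 0 in a whole group. In bulk tissue, fewer cells of a type and less RNA per cell cannot be told apart. The part of cell composition in the miR-467d-5p difference was not tested.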

How the data were processed

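The authors deposited 1 table of raw read counts of mature microRNA entries in 27 libraries. Per the labels' protocols, total RNA was taken with Trizol and TruSeq small RNA libraries with inserts of 15 to 35 bp were read on a MiSeq. The submitters' processing notes list Novoalign and edgeR; build and multi-match handling: not given in the sources used here. Counts were analysed in R 4.3.3 with edgeR 4.0.16 (TMM, filterByExpr with a minimum of 10 counts, robust quasi-likelihood fit of the 9 groups, 18 residual degrees of freedom, Benjamini-Hochberg adjustment over 1470 of 1842 entries). CPM are counts over TMM-scaled totals. The SE of a log2 change was worked back from the edgeR test, as its absolute value over the square root of the F statistic. The edgeR test was run on simulated data with independent libraries and no effect of surgery day, a simpler setting than these data. Same-numbered libraries share a day of surgery, as the series' design text states. The mean correlation of their deviations from the group mean was 0.233 over 108 pairs. That of other pairs was -0.116, which is no separate evidence, since deviations within a group cancel out. Alternatives were DESeq2 1.42.0, a replicate block, no filter, library totals, the 6 compared libraries alone and each library left out. Members and lists were chosen with earlier results of these data known. Named members were the 10 highest, those called, each family's most abundant, and any at 0 throughout; others (miR-467d-3p, miR-466i-5p) were picked after their values were seen. Sequences are from RefSeq.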

Additional observations from a re-analysis of the deposited data

How the results depend on the processing

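miR-467d-5p at 24 h between hemispheres passed in 11 of 11 alternatives (log2 3.47 to 4.89), and at 12 h in 7 of 11. The replicate block changed the number of members called only for ipsi_24h against ipsi_3h, where 2 were called, beside 158 of 1470 entries. No filter (126 of 1842 entries) and DESeq2 (135 of 1470) also called 2 members there. Leaving out libraries gave 0 to 3 members there, beside 36 of 1525 to 155 of 1539 entries. At 3 h DESeq2 called 1 member between hemispheres (11 of 1470 entries) and 1 against sham (18 of 1470). The 6 libraries alone also called 1 in each (11 of 1326 and 15 of 1109 entries). DESeq2 gave no adjusted p to 8 of the 10 members in either comparison at 3 h. The 6 libraries alone called 0 members at 12 h, where they called 0 of 845 entries between hemispheres and 0 of 1045 against sham, and 1 at 24 h (160 of 1195 and 137 of 1223 entries); only 4 or 5 members passed the filter in these fits, and miR-467c-5p and miR-669a-3-3p were not tested at 24 h. With a library left out, members called at 12 h ran from 0 to 1. All entries called ran from 10 of 1544 to 104 of 1515 between hemispheres, and from 7 of 1544 to 108 of 1515 against sham. At 24 h the members ran from 1 to 4 between hemispheres, beside 107 of 1525 to 225 of 1539 entries. Against sham at 24 h they ran from 1 to 3, beside 92 of 1525 to 212 of 1539. For the interaction they ran from 0 to 1, where miR-467d-5p was called without ipsi_12h replicate 3, beside 59 of 1544 entries. The summed level of ipsi_3h moved to 333.9 CPM with library totals alone (222.2 without miR-467d-5p); that of ipsi_24h went from 681.6 to 910.9 with library totals and to 434.1 without replicate 1, and that of ipsi_12h from 395.6 to 264.1 without replicate 3. Differences at 24 h that did not pass changed sign: with library totals to 0.28 for miR-466n-3p and 0.38 for miR-467a-5p, and with 1 library left out the log2 change ran from -0.445 to 0.027 for miR-466n-3p, -0.738 to 0.749 for miR-467a-5p, -0.221 to 0.742 for miR-669c-5p, -2.064 to 0.023 for miR-669g and -0.181 to 1.559 for miR-669h-5p; the cause was not tested. Counting each distinct mature sequence once was not run, since 8 members had one. Depth limits the 39 members below the filter, which had at most 19 counts in a library.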
